A study of Mus musculus with 42 samples.

Results

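The enzymes that break down tyrosine and recycle the cofactor of phenylalanine conversion were examined in liver RNA of female APOE*3-Leiden mice, as 7 genes among the 54446 genes of the count table. They were taken by name: Tat, Hpd, Hgd, Gstz1 and Fah form the chain from tyrosine to fumarate and acetoacetate, and Qdpr and Pcbd1 regenerate tetrahydrobiopterin (BH4). APOE*3-Leiden mice carry a human transgene that makes them respond to dietary fat and cholesterol with high plasma lipids. The promoter of this transgene is not given in the sources used here. Liver RNA was sequenced from 42 mice in 3 groups, with 1 library per mouse. The first group was 10 mice on chow at week 32 (Chow32w). The second group was 16 mice on a Western-type diet (WTD32w) of 15% cocoa butter, 40.5% sucrose and 1% cholesterol. These mice were 8 to 14 weeks old when a 3-week run-in on the diet began. The third group was 16 mice on the same diet with atorvastatin, an inhibitor of cholesterol synthesis (WTD&Atorvastatin32w), at 3.0 mg/kg/day and from week 5 at 4.5 mg/kg/day. Both WTD groups also received 0.05% cholate in the diet from week 22, which the chow-fed mice are not described as receiving. The starting age of the chow-fed mice is not given separately. Chow-fed mice carry mouse labels that start with AZ and all mice on WTD carry labels that start with Gen, so that diet and whatever the prefix stands for cannot be told apart.

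Phenylalanine is first converted to tyrosine in a reaction that consumes BH4. Tyrosine aminotransferase (Tat) then removes the amino group of tyrosine and sets the pace of the pathway, hydroxyphenylpyruvate dioxygenase (Hpd) makes homogentisate, homogentisate dioxygenase (Hgd) opens the ring, maleylacetoacetate isomerase (Gstz1) turns the product and fumarylacetoacetate hydrolase (Fah) splits it. The liver is the main site of this pathway, and inherited loss of Fah or Hgd causes hereditary tyrosinaemia or alkaptonuria. Pcbd1 (pterin-4a-carbinolamine dehydratase) and Qdpr (dihydropteridine reductase) return the oxidised pterin to BH4.

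The counts assigned to genes ranged from 15661381 to 36224054 per mouse, with a median of 19421089.5. In 9 libraries (3 chow, 5 WTD and 1 with atorvastatin), over 20% of the genes at 1 to 2 CPM (counts scaled to a common library size) in their own group had no count at all, up to 57.3%. The counts of DEGs, the fold changes and the pair correlations were therefore also computed without these 9 libraries. Levels below are given as CPM scaled by the trimmed mean of M values (TMM), and a gene was called a differentially expressed gene (DEG) at an adjusted p under 0.01 in edgeR's quasi-likelihood test over 15574 tested genes.

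All 7 genes have positions on GRCm38. Tat (ENSMUSG00000001670) lies on chromosome 8 at 109990437 to 109999803 on the plus strand, with 12 exons in its principal transcript. Hgd (ENSMUSG00000022821) lies on chromosome 16 at 37580153 to 37632020 on the plus strand, with 14 exons. Gstz1 (ENSMUSG00000021033) is on chromosome 12 at 87147165 to 87164723, plus strand, with 9 exons. Fah (ENSMUSG00000030630) is on chromosome 7 at 84585159 to 84606722, minus strand, with 14 exons. Qdpr (ENSMUSG00000015806) is on chromosome 5 at 45434021 to 45450236, minus strand, with 7 exons. The smallest of them, Pcbd1 (ENSMUSG00000020098), is on chromosome 10 at 61089331 to 61094324, plus strand, with 4 exons. Gstz1 shares 465 exonic bases with Pomt2 and 156 with Gm6566 on the other strand, and Qdpr shares 332 with Gm42413. The libraries were stranded, but the strand setting of the counting is not given in the sources used here.

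Hpd (ENSMUSG00000029445), on chromosome 5 at 123171807 to 123182727 on the minus strand, had 0 counts in all 42 mice. It lies entirely within Gm26745, a long non-coding gene of the same strand at 123047373 to 123230871, although the exons of both genes share 0 bases. Gm26745 itself had 17 to 618 counts per mouse. Of 261 protein-coding genes placed in this way inside another gene of the same strand, 256 had 0 counts in every mouse. The 0 counts of Hpd are thus not read as a lack of expression, and Hpd could not be compared between groups. Results below concern the other 6 genes, and each of them passed the filter on low counts and had counts in each of the 42 mice.

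Since the 6 measured genes moved together, the 250 bases before the start of transcription are shown for Tat and Qdpr, which differed the most between WTD and chow. The sequences are from RefSeq on GRCm38.p6, read 5′ to 3′ on the strand of the gene, and capitals mark matches on either strand. The motifs were CCAAT and the C/EBP motif TTGCGNAA, and the matches overlap none of each other.
Tat, chr8:109990186-109990435, plus strand: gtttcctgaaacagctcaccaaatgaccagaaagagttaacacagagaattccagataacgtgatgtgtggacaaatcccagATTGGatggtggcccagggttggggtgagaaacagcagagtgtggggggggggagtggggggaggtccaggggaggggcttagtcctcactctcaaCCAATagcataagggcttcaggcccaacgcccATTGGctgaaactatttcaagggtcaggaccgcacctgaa
Qdpr, chr5:45450230-45450479, minus strand: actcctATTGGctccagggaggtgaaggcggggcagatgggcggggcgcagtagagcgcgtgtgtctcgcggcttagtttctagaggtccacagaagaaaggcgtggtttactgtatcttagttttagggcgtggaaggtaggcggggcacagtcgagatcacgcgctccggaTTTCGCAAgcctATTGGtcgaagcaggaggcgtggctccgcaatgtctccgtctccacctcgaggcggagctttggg
The Tat promoter held 3 CCAAT matches, at -168, -72 and -40 from the start. Qdpr held CCAAT at -244 and -65 and the C/EBP motif at -77. Hgd held 2 CCAAT matches and each of the 2 Gstz1 starts held 1, whereas the Fah, Pcbd1 and Hpd windows held no match to these 2 motifs. Among 32536 promoters of the same length, 33.8% held CCAAT and 0.676% the C/EBP motif. The glucocorticoid receptor half-site AGAACA, present in 16.0% of promoters, and the sterol motif TCACCCCAC, present in 0.501%, had no match in the 8 windows, which says only that these letters are not there. Each match is a description of sequence and does not show binding.

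The WTD comparison asks what the diet did to these genes. Each of the 6 measured genes was lower in WTD-fed mice than in chow-fed mice, and all 6 were DEGs, by 0.48 to 1.19 on the log2 scale. Tat and Qdpr were lowered the most, to 0.437 and 0.477 of the chow level, and Hgd the least, to 0.715. Of all 15574 tested genes, 33.5% were DEGs in this comparison, 17.5% higher and 16.0% lower. The median log2 fold change of the 6 genes was -0.79, while that of all tested genes was 0.03.

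**Figure D1:**
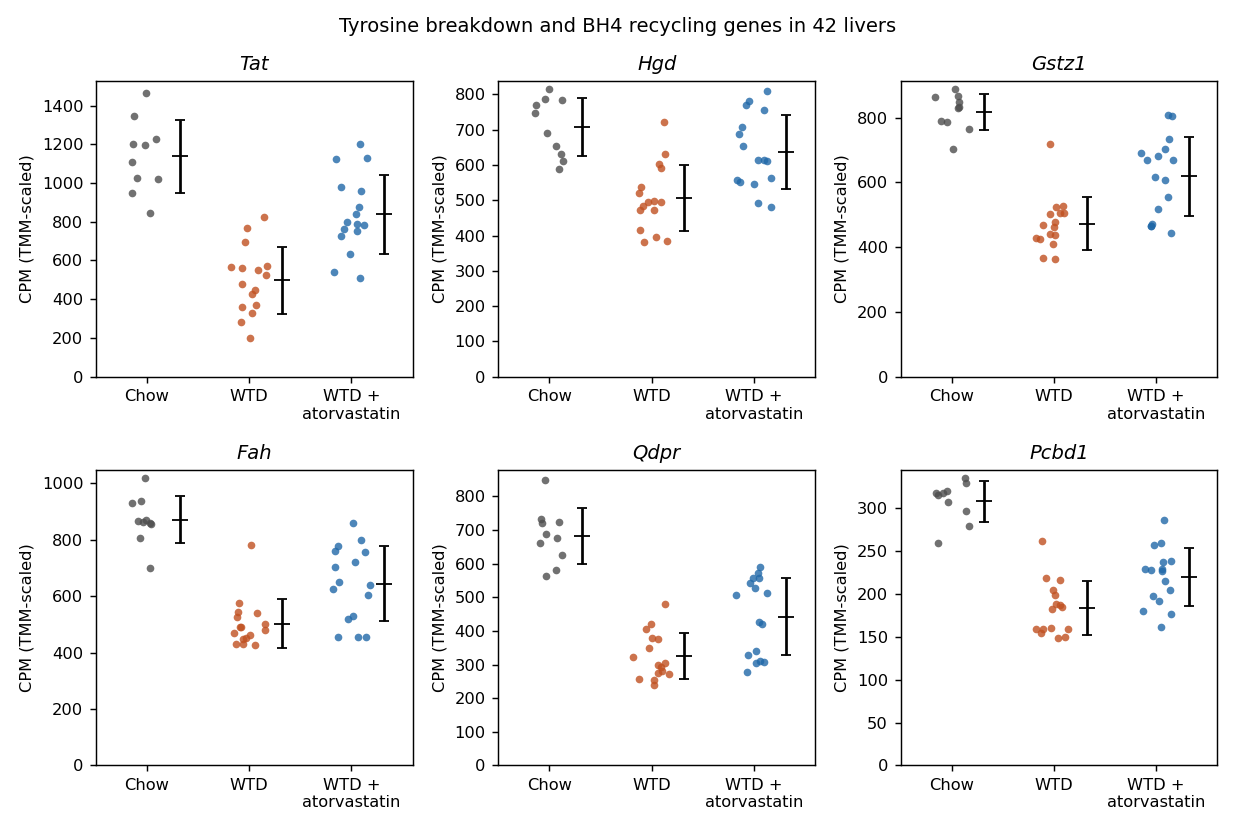
TMM-scaled CPM (vertical axis, linear, from 0) of the 6 measured genes in each of 42 livers, by group (10 chow, 16 WTD, 16 WTD with atorvastatin). Each point is 1 mouse, and the line with whiskers is the mean ± SD; the points of Tat and Qdpr on WTD all lie below those on chow, and the atorvastatin points lie between or across both.

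Tat had a lowest, median and highest level of 844, 1151 and 1463 CPM in chow-fed mice. In WTD-fed mice these levels were 201, 502 and 823 CPM. All 16 WTD-fed mice were below the lowest chow-fed mouse, so that the groups did not overlap in TMM-scaled CPM. They did overlap in TPM, which divides counts by gene length and by the total of all genes. Tat was there at 838 to 1309 TPM on chow and 275 to 931 TPM on WTD. How many of all tested genes were without overlap, or nearly so, was not counted. Counts of mice outside the range of another group, here and below, are therefore not read as particular to these genes. The log2 fold change was -1.19 (SE 0.16, 95% CI -1.51 to -0.88, edgeR adjusted p = 1.71e-08). Of the 6 genes, Tat had the highest coefficient of variation between mice on WTD (34.4%) and on chow (16.4%), and with atorvastatin it was at 24.1%, below Qdpr at 25.9%. In bulk liver RNA, fewer cells of a type and less RNA per cell cannot be told apart, for Tat as for the genes that follow.

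Qdpr, the reductase of the BH4 cycle, measured 563, 683 and 849 CPM (lowest, median and highest) on chow and 238, 302 and 479 CPM on WTD. Here too each of the 16 WTD-fed mice was below all chow-fed mice, and also in TPM (431 to 686 on WTD, 695 to 1059 on chow). Its log2 fold change was -1.07 (SE 0.12, 95% CI -1.31 to -0.83, adjusted p = 1.14e-10 by edgeR). The other enzyme of the cycle, Pcbd1, measured 259, 316 and 336 CPM on chow and 149, 184 and 262 CPM on WTD, a log2 fold change of -0.75 (SE 0.08, 95% CI -0.91 to -0.58, edgeR adjusted p = 8.14e-11). For Pcbd1, 15 of 16 WTD-fed mice lay below the lowest chow-fed mouse in TMM-scaled CPM. In TPM its ranges overlapped more widely, at 731 to 926 on chow and 555 to 809 on WTD.

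Among the enzymes that act on the opened ring, Gstz1 ranged from 702 over a median of 831 to 887 CPM on chow and from 365 over 465 to 718 CPM on WTD. Fah, the last enzyme, ranged from 700 over 866 to 1018 CPM on chow and from 427 over 484 to 782 CPM on WTD. In both genes a single WTD-fed mouse reached into the chow range and the other 15 lay below it. Their log2 fold changes were nearly equal, at -0.79 (SE 0.09, 95% CI -0.98 to -0.61, edgeR adjusted p = 3.06e-10) for Gstz1 and -0.79 (SE 0.09, 95% CI -0.98 to -0.60, edgeR adjusted p = 5.93e-10) for Fah.

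Hgd, which opens the ring, was the least affected. Its lowest, median and highest levels were 588, 718 and 816 CPM on chow and 383, 495 and 723 CPM on WTD. The groups overlapped, with 12 of 16 WTD-fed mice below the lowest chow-fed mouse, and the log2 fold change was -0.48 (SE 0.09, 95% CI -0.67 to -0.30, edgeR adjusted p = 1.70e-05). In TPM the WTD range of Hgd, 465 to 705, held the whole chow range, 537 to 696. Its median was 599 TPM on chow, 575 on WTD and 641 with atorvastatin.

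The mouse that reached into the chow range was the same for Gstz1, Fah and Pcbd1. This mouse, WTD replicate 15, had the highest TMM-scaled level of all 6 genes in its group. It had 823 CPM of Tat, 723 of Hgd, 718 of Gstz1, 782 of Fah, 479 of Qdpr and 262 of Pcbd1. Its TMM factor of 0.915 was the only one below 1 on WTD, which raises its CPM. By TPM it was the highest for Gstz1 (342) and Fah (856), whereas other WTD-fed mice were higher for Tat, Hgd, Qdpr and Pcbd1. The summed level of 9 hepatocyte markers, a sum mostly of albumin, was in this mouse also the highest of the 16 WTD-fed mice (110690 CPM against a group median of 71121). Its summed level of 10 macrophage markers was the lowest (2430 CPM against 3064). This library was 1 of the 9 in which weak genes were often missed, at 21.9%. All 6 genes were still DEGs when each mouse in turn, this one included, was left out.

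Marker genes of liver cell types moved with the diet. Of the hepatocyte markers, 9 of 9 tested were lower on WTD, with a median log2 fold change of -0.67, and their summed level was 110680 to 162210 CPM on chow and 56070 to 110690 CPM on WTD. Albumin (Alb), the most abundant, had a log2 fold change of -0.90 (edgeR adjusted p = 5.19e-10). Alb made up most of the sum, with a mean of 95000 of 131400 CPM on chow and 50778 of 72768 CPM on WTD. Of the macrophage markers, 8 of 10 were higher, with summed levels of 396 to 635 CPM on chow and 2430 to 4355 CPM on WTD. The stellate cell and fibroblast list had 6 of 10 higher and the cholangiocyte list 6 of 6. Endothelial markers were called in both directions, with 2 of 6 higher and 2 of 6 lower, and 2 of 3 tested neutrophil markers were higher. T cell markers summed to at most 17.5 CPM on chow and 23.5 CPM on WTD. The part of cell composition in the lower levels of the 6 genes was not tested.

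The comparison of the WTD groups asks what atorvastatin changed on the same diet. All 6 genes had higher levels in atorvastatin-treated mice than in WTD-fed mice, and 5 of the 6 were DEGs, by 0.33 to 0.75 on the log2 scale. Tat again moved the most, to 1.68 times its level on WTD, whereas Pcbd1 missed the threshold. Of all tested genes, 7.10% were DEGs in this comparison, 4.84% higher and 2.26% lower. The median log2 fold change of the 6 genes was 0.37, while that of all tested genes was 0.00157.

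Tat measured 508, 794 and 1202 CPM (lowest, median and highest) in atorvastatin-treated mice. All 16 of them were above the WTD median and 7 were above the highest WTD-fed mouse. The log2 fold change was 0.75 (SE 0.14, 95% CI 0.47 to 1.03, edgeR adjusted p = 0.000197).

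Qdpr measured 276, 468 and 590 CPM with atorvastatin, and 8 of 16 mice exceeded the highest WTD-fed mouse. Its log2 fold change was 0.44 (SE 0.11, 95% CI 0.23 to 0.66, edgeR adjusted p = 0.00246). Pcbd1 measured 161, 227 and 286 CPM, with 1 of 16 mice above the WTD range. For Pcbd1 the log2 fold change was 0.26 (SE 0.07, 95% CI 0.11 to 0.41, edgeR adjusted p = 0.0110), which did not pass the threshold of 0.01. Pcbd1 did pass when any 1 of 10 mice was left out, with adjusted p from 0.000975 without WTD replicate 15 to 0.00991 without chow replicate 5. The others were WTD replicates 1 (0.00776), 3 (0.00945) and 11 (0.00763) and atorvastatin replicates 1 (0.00551), 3 (0.00661), 4 (0.00391), 7 (0.00850) and 15 (0.00905).

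The 3 other enzymes of the chain rose by 0.33 to 0.39 on the log2 scale. Gstz1 measured 442, 643 and 809 CPM, a log2 fold change of 0.39 (SE 0.08, 95% CI 0.22 to 0.56, edgeR adjusted p = 0.000654), and Fah measured 453, 645 and 860 CPM, a log2 fold change of 0.36 (SE 0.08, 95% CI 0.19 to 0.53, edgeR adjusted p = 0.00217). Hgd measured 481, 614 and 810 CPM, with a log2 fold change of 0.33 (SE 0.08, 95% CI 0.17 to 0.50, edgeR adjusted p = 0.00325). In each of these 3 genes the groups overlapped, with 2 to 4 atorvastatin-treated mice above the highest WTD-fed mouse.

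The atorvastatin-treated mice were spread unevenly. Qdpr was at 276 to 341 CPM in 6 of them and at 421 to 590 CPM in the other 10. The WTD range was 238 to 479 CPM, so that both sets reached into it. The same 6 mice had 442 to 553 CPM of Gstz1 and 161 to 205 CPM of Pcbd1, below the other 10 at 607 to 809 and 215 to 286 CPM, while Fah (453 to 624 and 604 to 860 CPM), Hgd (481 to 614 and 551 to 810 CPM) and Tat (541 to 957 and 508 to 1202 CPM) overlapped. The 6 were also those with a TMM factor above 1 (1.02 to 1.11, against 0.890 to 0.980). The CPM are divided by this factor, so that the scaling widens these gaps. In TPM, Gstz1 stayed apart (at most 308 in the 6, at least 312 in the 10). Qdpr (at most 571, at least 558) and Pcbd1 (at most 751, at least 645) overlapped in TPM. The summed hepatocyte markers of the 6, mostly Alb, were at 66890 to 89470 CPM against 105200 to 133900 CPM in the 10. Their summed stellate cell and fibroblast markers were at 1690 to 2488 CPM against 1042 to 1434 CPM, and their endothelial markers at 243 to 279 CPM against 286 to 346 CPM, in both cases without overlap. Summed macrophage markers overlapped, at 2077 to 3072 CPM and 1751 to 2468 CPM. What set these mice apart was not tested.

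Cell type markers also moved with atorvastatin. Of the hepatocyte markers, 4 of 9 were higher than on WTD, with a median log2 fold change of 0.20, and the summed level was 66888 to 133900 CPM. Of the macrophage markers 5 of 10 were lower and 1, the Kupffer cell lectin Clec4f, was higher. Of the stellate cell and fibroblast markers 4 of 10 were lower and 1 was higher, with a median log2 fold change of -0.40 and a summed level of 1153 to 2640 CPM on WTD and 1042 to 2488 CPM with atorvastatin. Of the cholangiocyte markers 1 of 6 was lower, with a median of -0.69, and 5 of 6 had an unadjusted p under 0.05. Their part in the higher levels of the 5 genes was not tested.

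Against chow-fed mice, atorvastatin-treated mice had lower levels of Qdpr, Pcbd1, Fah and Gstz1, which makes 4 DEGs of the 6 genes. Of all tested genes, 25.0% were DEGs in this comparison, 14.2% higher and 10.7% lower, and the median log2 fold change was -0.44 for the 6 genes and 0.04 for all tested genes. Qdpr had a log2 fold change of -0.62 (SE 0.12, edgeR adjusted p = 3.05e-05) and Pcbd1 of -0.49 (SE 0.08, edgeR adjusted p = 4.58e-06). For each of these genes, 14 of 16 atorvastatin-treated mice were below all chow-fed mice. Fah was at -0.44 (SE 0.09, edgeR adjusted p = 0.000211) and Gstz1 at -0.40 (SE 0.09, edgeR adjusted p = 0.000438). Tat was at -0.44 with a wider error (SE 0.16, 95% CI -0.76 to -0.13, edgeR adjusted p = 0.0240), which did not pass the threshold, although 10 of 16 mice were below the lowest chow-fed mouse. With only these 2 groups in the fit, Tat passed (adjusted p = 0.00185). Hgd, at -0.15 (SE 0.09, 95% CI -0.34 to 0.03, edgeR adjusted p = 0.209), did not pass either. The comparison shares its mice with those above, and the 3 values of each gene are therefore set side by side without a test between them. Of the hepatocyte markers 4 of 9 were lower and of the macrophage markers 9 of 10 were higher than on chow, as were 8 of 10 stellate cell and fibroblast markers and 4 of 6 cholangiocyte markers, and their part was not tested. Without the 9 libraries that often missed weak genes, 6, 5 and 4 of the 6 genes were DEGs in the 3 comparisons.

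**Figure D2:**
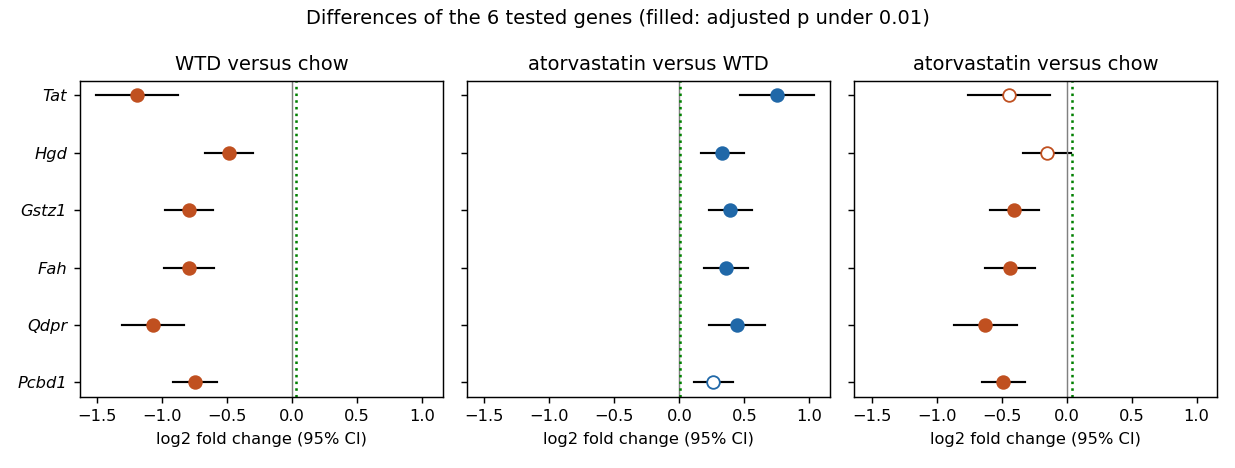
Log2 fold changes (horizontal axis) of the 6 tested genes in the 3 comparisons, with 95% confidence intervals from edgeR. Filled points have an adjusted p under 0.01, and the dotted line is the median of all 15574 tested genes; all points lie left of 0 on WTD against chow and right of 0 for atorvastatin against WTD.

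The scaling between libraries bears on the size of these differences. With total counts in place of TMM factors, an alternative chosen after seeing the data, the median of all tested genes was 0.34 for WTD against chow, -0.16 for atorvastatin against WTD and 0.20 for atorvastatin against chow. The median of the 6 genes was then -0.49, 0.20 and -0.30. Relative to the median of all tested genes, the 6 genes were at -0.83, 0.36 and -0.49 with total counts and at -0.82, 0.37 and -0.48 with TMM. With total counts, 5, 2 and 4 of the 6 were DEGs, and Hgd was not among them on WTD against chow (-0.18, adjusted p = 0.0298). With atorvastatin against WTD, only Tat and Gstz1 passed. Of all DEGs on WTD, 52.2% were higher with TMM and 82.4% with total counts. The share was 68.2% against 24.4% for atorvastatin against WTD, where it was 54.9% with RLE size factors and 50.9% with DESeq2. For atorvastatin against chow it was 57.0% and 76.7%.

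Levels were compared between genes per length only, as TPM, which divides the counts of a gene by its length and by the total of all genes, here on the union of annotated exons. Tat had the highest TPM in 10 of 10 chow-fed mice, in 5 of 16 WTD-fed mice and in 13 of 16 atorvastatin-treated mice. Its median was 1039 TPM on chow, 624 on WTD and 893 with atorvastatin. On chow the medians of Fah (867), Qdpr (849) and Pcbd1 (841) followed with overlapping ranges, then Hgd at 599 and Gstz1 at 357 TPM. On WTD the medians of Fah and Pcbd1 (667 and 665 TPM) stood above that of Tat, and Fah was first in 6 and Pcbd1 in 5 of 16 mice. Hgd was at 575 and Qdpr at 521 TPM. The order depends on the length used. Gstz1 was last in TPM in all 42 mice with an exon union of 5088 bases, but last in none per kilobase of its principal transcript of 1656 bases, where Fah was first in 28 of 42 mice and Tat in 4.

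Of the 6 remaining genes of BH4 supply, 5 were lower on WTD, with a median log2 fold change of -0.44. Gch1, the first enzyme of BH4 synthesis, was at 208 ± 22.8 CPM (SD, n = 10) on chow and 120 ± 19.2 CPM (SD, n = 16) on WTD, a log2 fold change of -0.79 (SE 0.08, edgeR adjusted p = 5.95e-12). Gchfr, whose protein regulates Gch1, had a log2 fold change of -1.11 (SE 0.13, edgeR adjusted p = 2.99e-10). Pts and Spr, the next enzymes of synthesis, were lower by less, at -0.41 and -0.35 on the log2 scale (edgeR adjusted p = 0.000840 and 0.000565). With atorvastatin against WTD, 1 of the 6, Gch1, was higher (log2 fold change 0.29, SE 0.07, edgeR adjusted p = 0.00333). Pts was then at 0.18 and Spr at -0.00232 (edgeR adjusted p = 0.220 and 0.992). Against chow, 4 of 6 were lower with atorvastatin.

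A further list held other enzymes of phenylalanine and tyrosine products and relatives of the members. Of its 11 tested genes, 7 were lower on WTD, with a median log2 fold change of -0.43. Got1, the cytosolic aspartate aminotransferase that also accepts aromatic amino acids, was at -0.83 (SE 0.18, edgeR adjusted p = 0.000195). Maob, a monoamine oxidase, was at -0.91 and Fahd1, a Fah-like hydrolase, at -0.85 (edgeR adjusted p = 2.73e-11 and 3.29e-09). With atorvastatin against WTD, 2 of 11 were higher, Maob (0.48) and the mitochondrial aminotransferase Got2 (0.35), with edgeR adjusted p = 9.69e-05 and 0.000755. Got1 was at 0.56 (edgeR adjusted p = 0.0138) and did not pass. Against chow, 5 of 11 were lower with atorvastatin, Fahd1 (-0.74) and Maob (-0.43) with the smallest p (edgeR adjusted p = 1.88e-07 and 0.000403).

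The carriers of aromatic amino acids were called in both directions. Of 6 tested, 2 were higher and 1 was lower on WTD. Slc7a8 and Slc43a2, which transport large neutral amino acids, were higher by 2.08 and 1.61 on the log2 scale (edgeR adjusted p = 5.32e-15 and 2.51e-14), and Slc16a10, which carries aromatic amino acids, was lower (-0.63, SE 0.10, edgeR adjusted p = 1.66e-06). Slc43a2 was the 1 DEG with atorvastatin against WTD (-0.51, edgeR adjusted p = 0.00109). Of 6 genes listed around the products fumarate and acetoacetate, 4 were lower and 1 was higher on WTD. Acat2, which makes acetoacetyl-CoA in the cytosol, was at -1.36 on WTD and at 0.67 with atorvastatin against WTD (edgeR adjusted p = 7.72e-11 and 0.000278). Fh1, the fumarase, was at -0.48 on WTD (edgeR adjusted p = 7.29e-07). Against chow, atorvastatin-treated mice had 2 of 6 carriers higher, and 3 of these 6 product genes lower with 1 higher.

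Of the transcription factors of liver genes, Hnf4a was at -0.31 on WTD and at 0.33 with atorvastatin against WTD (log2 fold changes, edgeR adjusted p = 0.000787 and 0.000639). The glucocorticoid receptor gene Nr3c1 was at -0.00758 and 0.11 in these comparisons (edgeR adjusted p = 0.954 and 0.430) and passed in neither. Against chow, Foxa3 was lower with atorvastatin (-0.55, edgeR adjusted p = 0.00339).

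Tat is known as a gene induced by glucocorticoids and fasting, and 8 other genes so known were followed beside it. On WTD 2 were higher and 4 were lower, with Sgk1 at 0.83 and Tsc22d3 at -0.64 on the log2 scale (edgeR adjusted p = 7.32e-08 and 1.58e-05). With atorvastatin against WTD, 0 of 8 passed in edgeR, and 2 had an unadjusted p under 0.05. Of 9 clock genes, 2 were lower on WTD, Clock (-0.66) and Cry1 (-0.95), with edgeR adjusted p = 1.61e-05 and 0.00804. In atorvastatin against WTD, 0 of 9 passed in edgeR and 1 had an unadjusted p under 0.05. Of all tested genes, 17.5% were higher and 16.0% lower on WTD, and 7.10% were DEGs with atorvastatin against WTD. Counts of 0 in lists this short are therefore not read as a result. Against chow, atorvastatin-treated mice had 2 of 8 of the induced genes higher and 1 lower, and 1 clock gene higher and 1 lower. The hour at which the livers were taken is not given in the sources used here.

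The breakdown enzymes of other amino acids were in 6 further lists of 33 tested genes, and 33 of 33 were lower on WTD, with a median log2 fold change of -0.83 and a range of -2.05 to -0.37. The median was -0.88 for 6 genes of tryptophan, -1.04 for 4 of histidine, -0.83 for 5 of lysine, -0.99 for 3 of proline and hydroxyproline, -0.78 for 5 of serine, glycine and threonine and -0.65 for 10 of branched-chain amino acids. The -0.79 of the 6 phenylalanine and tyrosine genes lay within these medians. With atorvastatin against WTD, 25 of 33 were higher, with a median of 0.42, and against chow 21 of 33 were lower, with a median of -0.38. Of all tested genes, 16.0% were lower on WTD, 4.84% higher with atorvastatin against WTD and 10.7% lower with atorvastatin against chow. These lists were chosen with earlier results of these data known. Prodh2 (hydroxyproline dehydrogenase) was at -1.69 on WTD (edgeR adjusted p = 4.47e-16), Gcdh of lysine breakdown at -1.15 (edgeR adjusted p = 3.08e-14) and Ido2 of tryptophan breakdown at -1.19 (edgeR adjusted p = 4.24e-11). Of the histidine genes, Hal rose by 1.24 with atorvastatin against WTD (edgeR adjusted p = 4.66e-05). No test set the 6 genes against these lists.

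**Figure D3:**
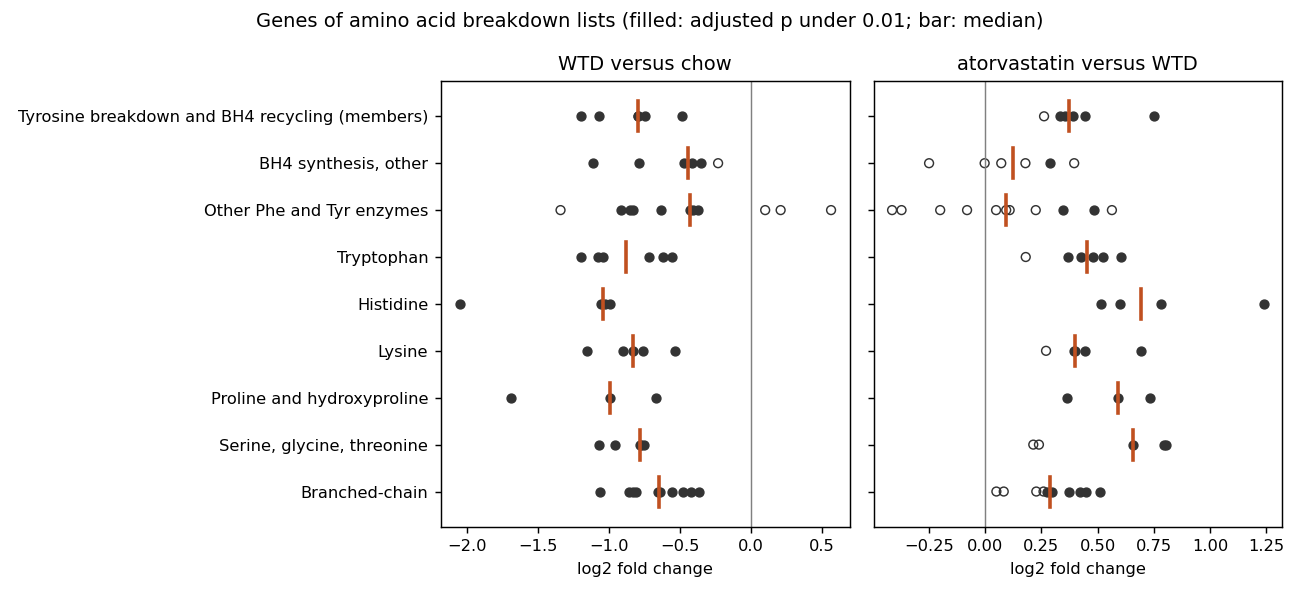
Log2 fold changes (horizontal axis) of each tested gene in the list of the 6 genes and in 8 lists of related or other amino acid genes, for WTD against chow and for atorvastatin against WTD. Each circle is 1 gene, filled at an adjusted p under 0.01, and the bar is the median of the list; the median of the 6 genes is -0.79 on the left and 0.37 on the right.

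Within a group, mice with more of 1 of the 6 genes tended to have more of the others. Correlations of log2 CPM were computed for the 15 pairs in each of the 3 groups, with 2-sided permutation tests of 100000 resamples adjusted over the 45 values. All 45 values of Pearson's r were above 0, and 29 passed an adjusted p of 0.05, which were 4 of 15 on chow, 14 of 15 on WTD and 11 of 15 with atorvastatin. The median r was 0.599 on chow, 0.756 on WTD and 0.833 with atorvastatin. Since the chow group had 10 mice and the others 16, these counts are not compared between groups. How many pairs of other tested genes would pass was not counted, so that the counts are not read as particular to the 6 genes. With total counts in place of TMM, 17 of 45 passed, and the median r was 0.445, 0.618 and 0.599 in the 3 groups.

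Tat and Hgd formed the only pair that passed in all 3 groups among the pairs with Tat. Their r was 0.902 on chow (rho 0.915, permutation p = 0.000340 and 0.000650, adjusted 0.00101 and 0.00266), 0.849 on WTD (rho 0.773, permutation p = 4e-05 and 0.000600, adjusted 0.000257 and 0.00266) and 0.751 with atorvastatin (rho 0.721, permutation p = 0.000920 and 0.00238, adjusted 0.00218 and 0.00669). Without the 2 mice farthest from the median of Tat, r was 0.897, 0.803 and 0.712. With the other 4 genes, Tat had an r between 0.341 and 0.518 in atorvastatin-treated mice, and none of these 4 passed an adjusted permutation p of 0.05. On WTD, 3 of the 4 passed, with r between 0.688 and 0.741, and Tat with Fah was at 0.528.

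Gstz1 and Fah, the last enzymes of the chain, had an r of 0.964 with atorvastatin (rho 0.962, both permutation p = 1e-05, the smallest they can give, and adjusted 0.000225). On WTD their r was 0.838 (rho 0.735, permutation p = 0.000230 and 0.00192, adjusted 0.000796 and 0.00576). On chow r was 0.690 (rho 0.297, permutation p = 0.0338 and 0.407, adjusted 0.0507 and 0.446), which did not pass. It was 0.265 without the 2 mice farthest from the median of Gstz1. Leaving these out also narrows the range, so that the part of those 2 mice cannot be told. Without the 2 farthest mice the pair was at 0.699 on WTD and 0.948 with atorvastatin. Qdpr and Pcbd1 of the BH4 cycle were at an r of 0.106 on chow, 0.790 on WTD and 0.857 with atorvastatin (permutation p = 0.766, 0.000250 and 3e-05, adjusted 0.766, 0.000804 and 0.000225). Their rho was 0.0182, 0.706 and 0.800 (permutation p = 0.973, 0.00325 and 0.000340, adjusted 0.973, 0.00812 and 0.00219), and r without the 2 farthest mice was 0.150, 0.622 and 0.786.

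The atorvastatin-treated mice were split by their TMM factor into the 6 and 10 described above. The r over all 16 includes the gap in CPM between them. Within the 10 mice the r of the 15 pairs ranged from -0.165 to 0.885, with a median of 0.508, and within the 6 mice from 0.136 to 0.927, with a median of 0.430. With total counts, the range was -0.561 to 0.823 with a median of 0.378 within the 10 mice and 0.183 to 0.933 with a median of 0.376 within the 6. Of the pairs within the 10 mice, 14 of 15 had an r above 0 with TMM and 12 of 15 with total counts. These are given without a test.

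**Figure D4:**
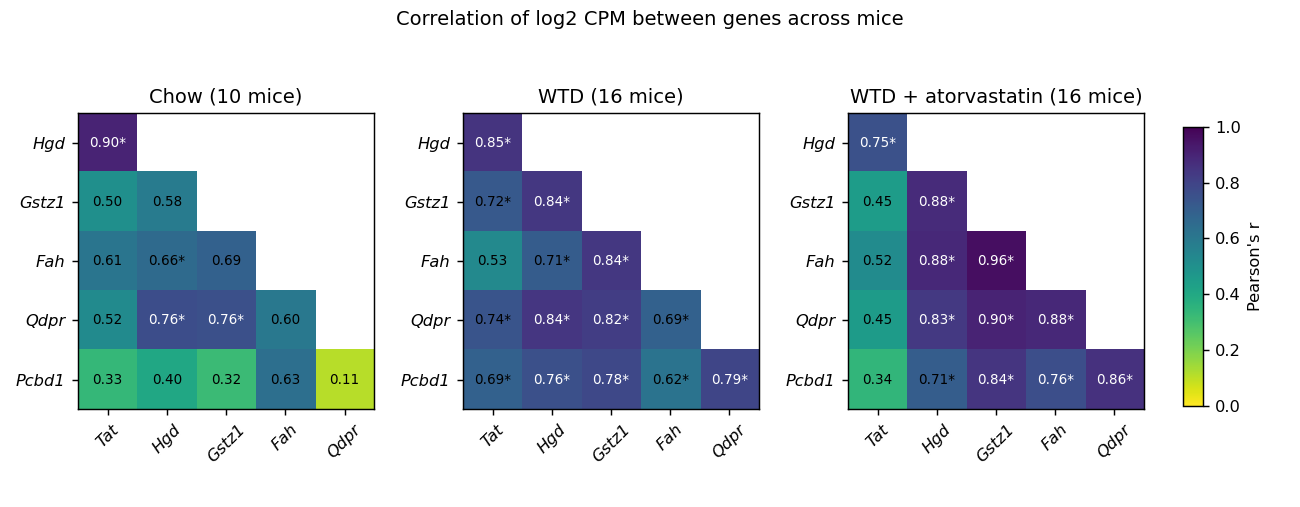
Pearson's r of log2 CPM between each pair of the 6 genes, across the mice of each group, with the colour scale from 0 to 1. Asterisks mark an adjusted permutation p under 0.05; with atorvastatin, Tat is at 0.34 to 0.52 with Gstz1, Fah, Qdpr and Pcbd1, and all other pairs of that group lie between 0.71 and 0.96.

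After the group means were removed, the genes most like each of the 6 over the 42 mice were found among 15574 genes by Pearson's r, as a description. The mice share libraries and scaling, and the median r over all genes was between -0.0474 and 0.00515. For Tat these were Got1 (0.817), the ornithine carrier Slc25a15 (0.817) and Hgd (0.810). For Hgd they were the folate enzyme Aldh1l1 (0.906) and the urea cycle enzymes Ass1 (0.903) and Asl (0.896). Slc27a5, a bile acid-CoA ligase, and Ahcy, which splits S-adenosylhomocysteine, were among the closest to both Gstz1 (0.942 and 0.936) and Fah (0.914 and 0.908). The remaining ones were prothrombin (F2, 0.920) for Gstz1 and Pecr, a peroxisomal reductase (0.911), for Fah. For Qdpr they were Haao of tryptophan breakdown (0.898), antithrombin (Serpinc1, 0.893) and Nipsnap1 (0.878). For Pcbd1 they were the glutathione transferase Gsta3 (0.843), Timd2 (0.825) and the respiratory chain subunit Uqcrc2 (0.822). Of the other members, Fah ranked 8th among all genes by likeness to Gstz1 and Hgd ranked 3rd for Tat, while Pcbd1 ranked 361st for Fah.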

How the data were processed

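Poly(A) RNA of 42 livers was sequenced in stranded libraries. Alignment by the authors was to GRCm38 (STAR), and HTSeq-count 0.6.1p1 gave the deposited counts, which are whole numbers without normalization (per the labels, Trimmomatic and DESeq2 were also used). Summary lines of the counter (on average 2.28% in no gene, 5.95% ambiguous and 4.68% not unique, relative to all counted pairs) were left out. Symbols and positions were matched for 54409 of 54446 genes in a GENCODE annotation of GRCm38 other than the release of the study.

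Genes were filtered with filterByExpr (minimum count 10, total 15), scaled by TMM and tested in edgeR 4.0.16 (R 4.3.3) with a robust quasi-likelihood fit of all 42 mice, 3 groups and no covariate. Benjamini-Hochberg adjusted p over 15574 genes were called under 0.01. The study's own tool, DESeq2, and limma-voom were alternatives. The test was checked on simulated counts for WTD against chow. It called 55 of 100 genes with a log2 change of 1, 26 of 100 with 0.5 and 1 of 15374 unchanged genes. A gene that does not pass is thus not shown to be unchanged. Log2 CPM used a prior count of 2. Correlations were computed with numpy and tested with 100000 permutations. As Hpd had no counts, 15 rather than 21 pairs were formed in each group.

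The members and lists were chosen with earlier results of these data known. Named genes were all members, up to 2 genes with the smallest p per list and comparison, Gch1, Pts, Spr, Nr3c1, Got1 and Slc16a10, and the 3 genes most like each member. A result that concerns an item withheld here is not reported. Alb and Clec4f, as well as the genes named for overlap or for a count of 1, were added after their values were seen. Per mouse, 15661381 to 36224054 counts stand behind the values, and the number of mice rather than counting error limits the precision. Each library is 1 mouse.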

Additional observations from a re-analysis of the deposited data

How the results depend on the processing

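All 6 genes were called on WTD against chow with DESeq2, limma-voom with sample weights, RLE size factors, no filter or a stricter one (10 counts in each library), a fit of just the 2 groups, the 9 libraries or the 20 most abundant genes left out, and each mouse left out. With total counts, chosen after seeing the data, the median log2 fold change of the 6 genes moved from -0.79 to -0.488 on WTD against chow and from -0.44 to -0.298 for atorvastatin against chow. In atorvastatin against WTD, 2 rather than 5 were called with total counts, and 17 rather than 29 of 45 pairs passed the permutation test. Only the scaling differed between these settings. Leaving out single mice gave 6 to 6 calls and a median of -0.845 to -0.771 on WTD against chow, 5 to 6 calls and 0.342 to 0.426 for atorvastatin against WTD, and 4 to 4 calls and -0.474 to -0.408 for atorvastatin against chow. For single genes, 746 of 756 leave-one-out values kept their direction and side of the threshold, and the other 10 were Pcbd1 passing for atorvastatin against WTD. Pcbd1 also passed there with limma-voom (adjusted p = 3.22e-05) and without a filter (0.00998), with adjusted p from 3.22e-05 to 0.259 over 52 alternatives. No gene changed its direction under any alternative.

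No paired analysis was possible because the replicate numbers were given in accession order and each mouse number names 1 mouse in 1 group. Hpd could not be measured. Groups and label prefixes cannot be told apart, and no batch is given in the labels.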
